A study of Mus musculus with 6 samples.

Results

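The TCF/LEF factors and their nuclear cofactors were examined in mouse bone marrow cells sorted by a gate for haematopoietic stem cells. They are 9 genes measured by 102 of the 241576 probe sets on the array. The 9 genes were Tcf7, Lef1, Tcf7l1, Tcf7l2, Bcl9, Bcl9l, Pygo1, Pygo2 and Ctnnbip1, and a probe set was taken where the platform annotation gave it exactly 1 gene and that gene was among them. They are 9 of the 20353 genes that have a probe set of their own. The samples were 3 floxed arrays, from Vav-Cre positive mice whose beta-catenin gene is floxed, and 3 control arrays. The Vav promoter drives Cre in blood-forming cells in general and not in stem cells alone. All 6 samples were bone marrow cells of the KLSCD34- gate, which takes cells with c-Kit and Sca-1 on the surface and without lineage markers or CD34. Strain, age, zygosity of the floxed alleles, and whether controls carried Cre or floxed alleles are not given in the sources used here. Nor is it stated whether each replicate was its own animal or a pool, and the p-values thus measure only how far these samples spread, which may be technical.

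Beta-catenin has no DNA-binding domain of its own. In the canonical Wnt pathway it enters the nucleus and binds the TCF/LEF proteins, which hold the DNA through an HMG box and otherwise recruit Groucho/TLE corepressors. BCL9 proteins bind beta-catenin and bring in Pygopus proteins, which read methylated histone tails, while ICAT, the product of Ctnnbip1, blocks the binding of beta-catenin to TCF. In blood, TCF-1 (Tcf7) and LEF-1 (Lef1) are best known from T cell development, and LEF-1 also from early B cells.

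Of the 9 genes none differed between floxed and control arrays past the threshold, an adjusted p of 0.05 in limma, a linear model that shares information on the spread across genes. Lef1 had the lowest log2 fold change, floxed minus control, at −0.31, and Pygo1 the highest at 0.21. The 95% confidence interval of the log2 fold change lay within 1 of 0 for 9 of 9 genes, as it did for 97.1% of the 14587 genes tested. Ctnnb1, the beta-catenin gene itself, checks the labels in the separate fit of single probe sets. There 5 of its 17 probe sets passed the threshold, with log2 fold changes from −6.90 to −2.51 (limma adjusted p at most 0.00137). Another 11 of its probe sets were tested and did not pass. In the fit of gene values 0 of the 14587 genes passed, so Ctnnb1 as a gene was not called there.

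The name Tcf7l1 does not occur in the annotation, which dates from a time when the gene was called Tcf3. The 12 probe sets listed there as Tcf3 were taken as Tcf7l1, because the same annotation lists 22 probe sets under Tcfe2a, an older name of the E protein gene now called Tcf3. In order of probe set number the 12 lie between Tgoln1 and Kcmf1, which RefSeq places with Tcf7l1 on chromosome 6, and the 22 lie between Uqcr11 and Atp8b3, which it places with the current Tcf3 on chromosome 10. The current symbol Tcf4 likewise names an E protein gene and was not used for Tcf7l2.

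Lef1 and Tcf7l2 have RefSeq transcripts that begin far inside the gene, and the sequences before their first and innermost listed starts are shown because isoforms that begin inside a TCF/LEF gene can lack the beta-catenin binding end of the protein. Each is the 250 bases before the start on the plus strand of GRCm38.p6, from RefSeq, and capitals mark a match to a TCF motif.
Lef1 first start, chr3:131110047-131110296: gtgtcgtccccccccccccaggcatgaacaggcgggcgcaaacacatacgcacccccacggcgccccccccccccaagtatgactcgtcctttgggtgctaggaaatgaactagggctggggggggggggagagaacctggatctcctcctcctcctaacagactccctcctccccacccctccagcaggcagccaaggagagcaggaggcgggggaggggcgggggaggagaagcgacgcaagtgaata
Lef1 innermost start, chr3:131156044-131156293: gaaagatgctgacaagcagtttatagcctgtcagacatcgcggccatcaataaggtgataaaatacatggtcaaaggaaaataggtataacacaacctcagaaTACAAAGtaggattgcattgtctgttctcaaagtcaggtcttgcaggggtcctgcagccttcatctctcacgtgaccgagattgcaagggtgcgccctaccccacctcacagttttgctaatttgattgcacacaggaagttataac
Tcf7l2 first start, chr19:55741560-55741809: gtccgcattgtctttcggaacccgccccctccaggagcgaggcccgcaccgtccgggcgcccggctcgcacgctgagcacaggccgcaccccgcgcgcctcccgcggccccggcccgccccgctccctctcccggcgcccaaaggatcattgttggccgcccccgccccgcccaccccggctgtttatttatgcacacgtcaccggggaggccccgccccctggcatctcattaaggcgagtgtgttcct
Tcf7l2 innermost start, chr19:55895071-55895320: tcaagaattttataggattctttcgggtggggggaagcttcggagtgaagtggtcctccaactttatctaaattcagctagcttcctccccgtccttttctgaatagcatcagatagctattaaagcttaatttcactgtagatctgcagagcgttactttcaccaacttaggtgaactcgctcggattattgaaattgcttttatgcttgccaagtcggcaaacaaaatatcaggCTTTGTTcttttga

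The motifs searched were CTTTGAA or CTTTGAT or CTTTGTA or CTTTGTT on both strands, overlaps allowed, over windows of 250 bases before and 50 bases after each listed start. A match stood in 2 of the 16 windows that RefSeq gives for 8 of the 9 genes, those of the innermost starts of Lef1 and Tcf7l2. One stood in 16.9% of all 32851 windows given there. RefSeq's windows there do not include Bcl9l. The innermost Lef1 start lies 46.0 kb and that of Tcf7l2 153.5 kb from the first start. A match is a run of letters and no evidence of binding, and no probe set could be tied to either start, since exon positions of the probe sets were not used here.

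**Figure D1:**
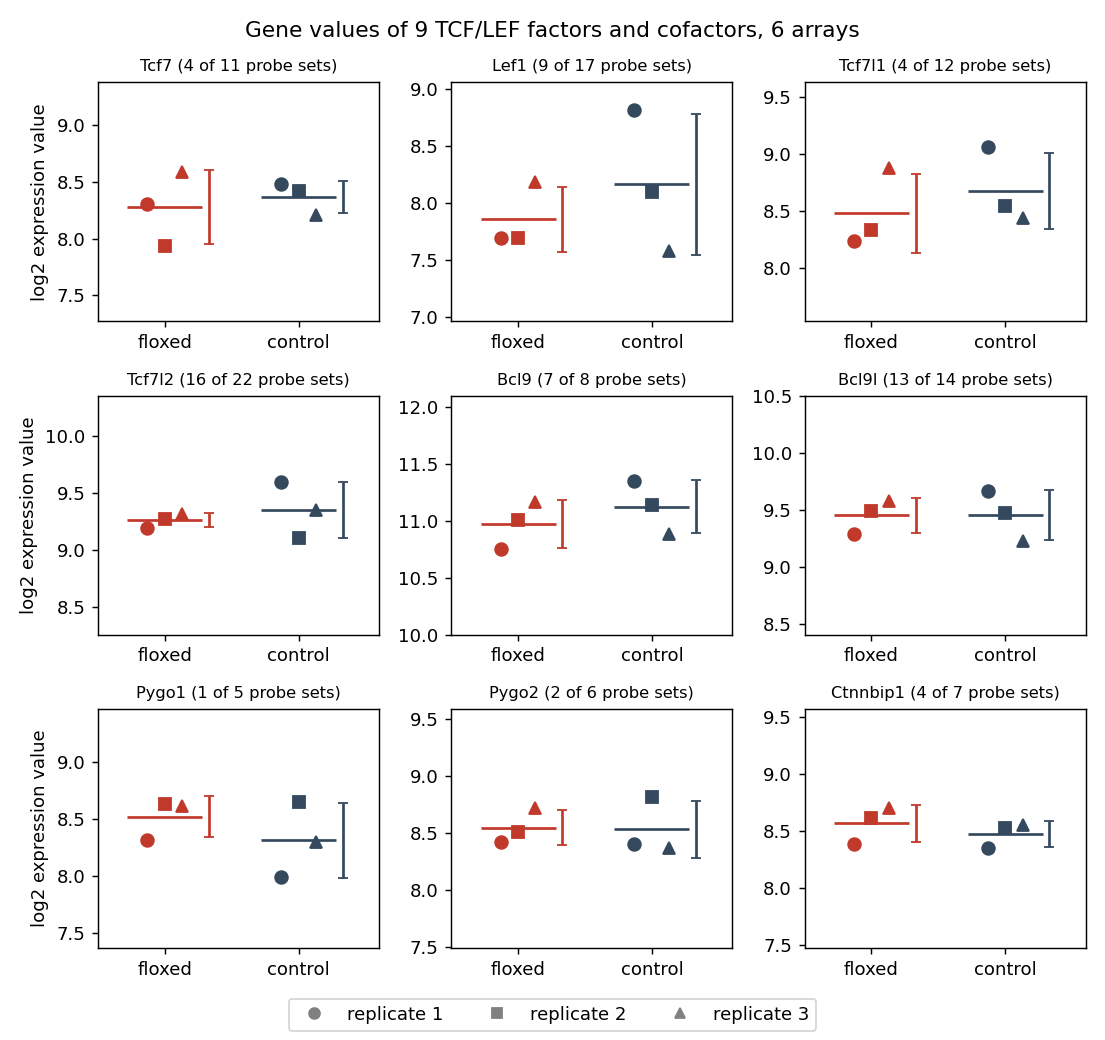
Log2 expression value of each of the 9 genes on each array (y axis), with floxed arrays left of control arrays; panels span equal log2 ranges. Points are arrays, horizontal lines group means and bars the SD (n = 3 each); the titles give how many probe sets passed the filter of how many. The groups overlap in every panel, and control replicate 1 stands highest for 5 of the 9 genes.

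Each gene's array value is a median, taken over those of its probe sets that averaged at least 7.60 log2 on the 6 arrays, a level that parts all probe sets into equal numbers. By that filter 60 of the 102 probe sets were kept, and each of the 9 genes kept at least 1. Since the array measures RNA of a sorted population, fewer cells with a transcript and less of it per cell cannot be told apart. Levels of different probe sets also depend on their sequences, so levels of different genes were not compared as amounts of RNA; a high mean signal served only to choose which genes of a list to name.

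Among the factors that bind DNA, Lef1 varied most between arrays. It had 7.69, 7.69 and 8.19 log2 on floxed replicates 1, 2 and 3, against 8.81, 8.10 and 7.57 log2 on control replicates 1, 2 and 3. The 3 floxed values lay inside the control range, with control replicate 1 at the top and control replicate 3 at the bottom of all 6 arrays. The means were 7.86 ± 0.28 log2 in floxed and 8.16 ± 0.62 log2 in control arrays (SD, n = 3 each). The log2 fold change was −0.31 (SE 0.29, 95% confidence interval −0.95 to 0.34, limma adjusted p = 0.999), and p was 0.7 in an exact two-sided permutation test, whose smallest p with 3 against 3 arrays is 0.1. The control SD of Lef1 was larger than that of 96.6% of the genes tested. The value rested on single control arrays, at −0.031 without control replicate 1 and −0.60 without control replicate 3 (limma adjusted p = 0.949 and 0.998). With only the probe sets past the 75th percentile the log2 fold change of Lef1 was −0.028.

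Tcf7 had 8.31, 7.94 and 8.58 log2 on the floxed arrays, against 8.48, 8.41 and 8.21 log2 on the control arrays. Here the control values lay inside the floxed range. The log2 fold change was −0.091 (SE 0.20, 95% confidence interval −0.52 to 0.34, limma adjusted p = 0.999). Tcf7 turned to 0.078 without floxed replicate 2, the array where it was lowest.

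Tcf7l1, whose product TCF-3 acts mostly as a repressor in mouse embryonic stem cells, had 8.24, 8.33 and 8.88 log2 on the floxed arrays, against 9.06, 8.54 and 8.43 log2 on the control arrays. The groups overlapped, because floxed replicate 3 lay above 2 of the control arrays. Its log2 fold change was −0.20 (SE 0.22, 95% confidence interval −0.69 to 0.29, limma adjusted p = 0.999). Of its 12 probe sets 10 were lower, with log2 differences from −0.57 to 0.27 over all 12, and of the 4 kept ones 10545467 had the smallest p (−0.28, SE 0.25). Without control replicate 1 the gene's log2 fold change was −0.0067, and without floxed replicate 3 it was −0.39.

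Tcf7l2, whose product TCF-4 is the main TCF of intestinal stem cells, had 9.20, 9.27 and 9.32 log2 on the floxed arrays, against 9.60, 9.11 and 9.35 log2 on the control arrays. The floxed values lay close together, with an SD of 0.06 against 0.24 in controls. Its log2 fold change was −0.089 (SE 0.16, 95% confidence interval −0.44 to 0.26, limma adjusted p = 0.999), and it was 0.034 without control replicate 1. Its 22 probe sets, 13 lower and 9 higher, had log2 differences from −0.35 to 0.52.

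The adaptor gene Bcl9 had 10.75, 11.01 and 11.16 log2 on the floxed arrays, against 11.35, 11.14 and 10.88 log2 on the control arrays. The groups overlapped, with a log2 fold change of −0.15 (SE 0.15, 95% confidence interval −0.48 to 0.18, limma adjusted p = 0.999). Its paralogue Bcl9l had 9.28, 9.49 and 9.58 log2 on the floxed arrays, against 9.66, 9.47 and 9.23 log2 on the control arrays. The means of Bcl9l were 9.45 ± 0.15 log2 in floxed and 9.45 ± 0.22 log2 in control arrays (SD, n = 3 each), and the 95% confidence interval of its log2 fold change ran from −0.35 to 0.34. Leaving out control replicate 1 gave Bcl9 −0.038, and leaving out control replicate 3 gave −0.28. Among kept probe sets the smallest p stood on 10500441 for Bcl9 (−0.21, SE 0.18) and on 10584774 for Bcl9l (−0.43, SE 0.34). Over all 14 Bcl9l probe sets the log2 differences ran from −0.43 to 0.52.

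The Pygopus gene Pygo1 had 8.32, 8.64 and 8.61 log2 on the floxed arrays, against 7.99, 8.65 and 8.30 log2 on the control arrays. That value rests on 1 of its 5 probe sets, since the other 4 lay below the filter, and its log2 fold change of 0.21 (SE 0.20, limma adjusted p = 0.999) turned to −0.14 when all 5 were used. Pygo2 had 8.42, 8.51 and 8.72 log2 on the floxed arrays, against 8.41, 8.82 and 8.37 log2 on the control arrays. Both genes overlapped between groups. Pygo2 had a log2 fold change of 0.017 (SE 0.18), which changed sign with several settings, among them quantile normalization (−0.025) and equal array medians (−0.014). Its probe sets ran from −0.22 to 0.46 and those of Pygo1 from −0.12 to 0.23, and among kept probe sets the smallest p stood on 10493536 for Pygo2 and on 10586995 for Pygo1.

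Ctnnbip1, the gene of the inhibitor ICAT, had 8.38, 8.62 and 8.70 log2 on the floxed arrays, against 8.34, 8.53 and 8.55 log2 on the control arrays. The 2 sets of values overlapped over most of their range, and the log2 fold change was 0.091 (SE 0.16, 95% confidence interval −0.26 to 0.45, limma adjusted p = 0.999). Ctnnbip1 was the 1 gene of the 9 on which all probe sets lay on the higher side, 7 of 7, with log2 differences from 0.080 to 0.41. Of its 4 kept probe sets 10510475 had the smallest p, and leaving out 1 array gave the gene 0.026 to 0.18. Bcl9 was its opposite, with 8 of 8 probe sets on the lower side and log2 differences from −0.21 to −0.00035. Probe sets of 1 gene read the same RNA on the same arrays and are no replicates of each other.

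As a group, 6 of the 9 genes were lower and 3 higher in floxed arrays. Their median log2 fold change was −0.089, where the median of all 14587 genes was 0.018 and 45.8% of genes were lower. In limma 0 of the 9 genes had an unadjusted p under 0.05, as 3.7% of all genes had, and the share past the adjusted threshold was 0% over all genes. For 0 of the 9 genes did the groups not overlap, against 8.44% of all genes (2.87% floxed lower, 5.57% floxed higher). The absolute log2 fold change had a median of 0.091 over the 9 genes and 0.12 over all genes.

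**Figure D2:**
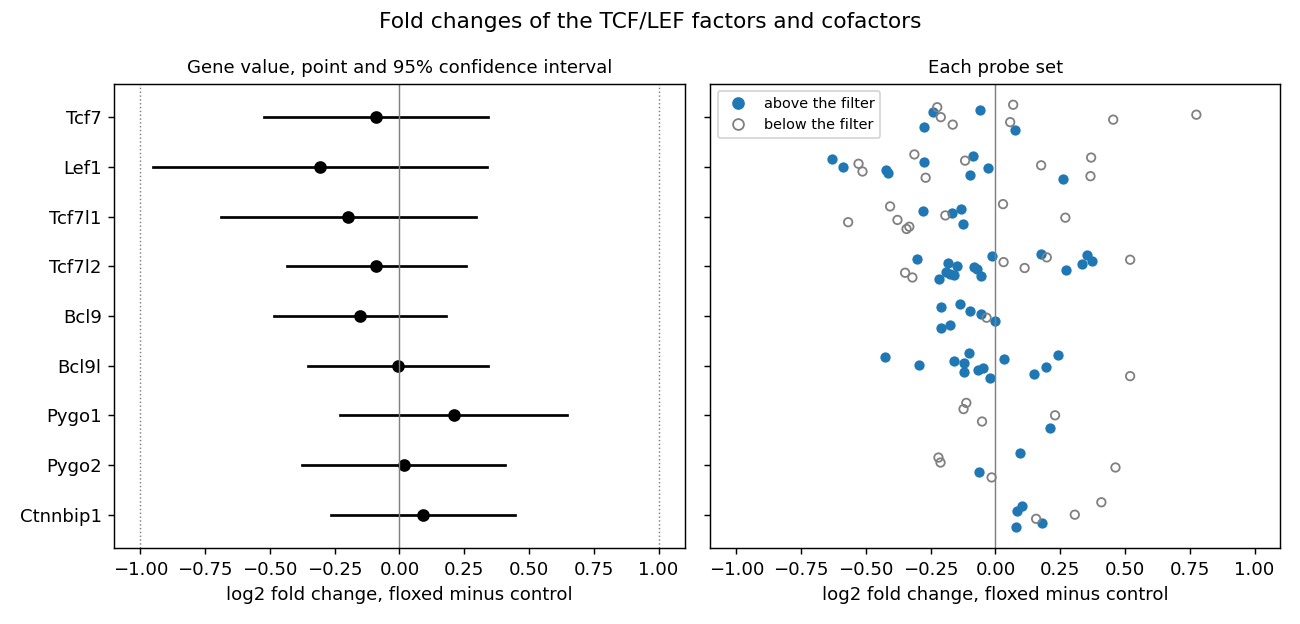
Log2 fold changes, floxed minus control (x axis), of the 9 genes. On the left, points are gene values and lines their 95% confidence intervals from limma, all within the dotted lines at −1 and 1; on the right, each point is 1 of the 102 probe sets, filled where it passed the filter. Probe sets scatter to both sides for 7 of the genes, lie on the lower side for Bcl9 and on the higher side for Ctnnbip1.

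At the level of single probe sets, 66 of the 102 were lower and 36 higher in floxed arrays, and 46.5% of all probe sets on the array were lower. Of the 60 kept probe sets 0 passed in limma (smallest adjusted p = 0.975) and 0 had an unadjusted p under 0.05, where 0.00414% and 4.35% of all kept probe sets did. The groups did not overlap on 4 of the 102 probe sets, 2 lower and 2 higher, against 9.48% of all probe sets (4.24% floxed lower, 5.25% floxed higher). These were 10545462 of Tcf7l1 and 10493535 of Pygo2 on the lower side, and 10464097 of Tcf7l2 and 10510480 of Ctnnbip1 on the higher side, all singled out after their values were seen, and 3 of these 4 lay below the filter. Among the kept probe sets the smallest p belonged to 10464105 of Tcf7l2, with a log2 fold change of 0.35 (SE 0.19, limma adjusted p = 0.975). Probe set 10464097 of Tcf7l2 had 9.02, 9.27 and 9.08 log2 on the floxed arrays, against 8.76, 8.81 and 8.80 log2 on the control arrays (difference 0.33 log2, SE 0.19, adjusted p = 0.975 in limma).

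The profiles of Tcf7 and Lef1 along their probe sets asked whether parts of these genes moved apart. Of the 11 Tcf7 probe sets 4 passed the filter, and of the 17 Lef1 probe sets 9 did. For Tcf7, taken in order of number, 10385777 had 7.84, 7.62 and 8.14 log2 on the floxed arrays, against 7.97, 7.78 and 7.62 log2 on the control arrays. On 10385780 the values were 8.67, 8.26 and 9.03 log2 in floxed, against 8.99, 9.21 and 8.59 log2 in control arrays. The lowest floxed value on the second of these, on floxed replicate 2, lay below all controls, while the other floxed arrays lay inside the control range. On 10385786 the values were 8.74, 8.48 and 9.25 log2 in floxed, against 9.35, 8.99 and 8.84 log2 in control arrays. On 10385787 they were 7.94, 7.54 and 7.90 log2 in floxed, against 7.89, 7.84 and 7.83 log2 in control arrays. The log2 differences of these 4 were 0.077, −0.28, −0.24 and −0.058. The 7 dim Tcf7 probe sets, 10385781 to 10385785, 10385788 and 10385789, had log2 differences from −0.22 to 0.78. The largest of these, on 10385785, had 5.84, 5.38 and 5.65 log2 on the floxed arrays, against 5.41, 5.38 and 3.75 log2 on the control arrays, and so leaned on control replicate 3.

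For Lef1, 13 of 17 probe sets were lower and 4 higher in floxed arrays. The kept probe set of smallest p, 10496100, had 7.62, 7.22 and 7.33 log2 on the floxed arrays, against 8.81, 7.70 and 7.42 log2 on the control arrays (difference −0.59 log2, SE 0.35, adjusted p = 0.975 in limma). The groups met there, since floxed replicate 1 lay above control replicate 3. The largest difference, −0.63 on 10496106, had 7.39, 6.67 and 8.37 log2 on the floxed arrays, against 8.93, 8.05 and 7.35 log2 on the control arrays. A like order of arrays stood on 10496104, with 8.28, 7.55 and 8.43 log2 in floxed, against 9.27, 8.24 and 7.57 log2 in control arrays, and 10496096, with 7.75, 7.69 and 8.62 log2 in floxed, against 9.15, 8.35 and 7.81 log2 in control arrays. On all 4 of these control replicate 1 was the highest array. Among the controls, control replicate 1 was highest on 13 of the 17 probe sets and control replicate 3 lowest on 12. Over all probe sets of the array these shares were 37.5% and 39.2%, and over all kept probe sets 44.1% and 47.0%. Control replicate 3 was the lowest of the 6 arrays for 34.7% of all genes.

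A few Lef1 probe sets did not share that order. The eighth in number, 10496099, had the highest mean signal of the Lef1 probe sets, 10.75 log2, where the next, 10496096, had 8.23. Its values were 10.69, 10.66 and 10.86 log2 on the floxed arrays, against 10.41, 10.98 and 10.91 log2 on the control arrays. Control replicate 1 was the lowest array there, and the log2 difference was −0.028. The order described for Lef1 thus came from probe sets of lower signal and did not stand on the brightest. On 10496098 the values were 7.53, 7.89 and 8.18 log2 in floxed, against 7.88, 8.39 and 8.60 log2 in control arrays, again with control replicate 1 at the bottom of the controls. The first in number, 10496092, lay on the higher side with 8.01, 8.34 and 8.19 log2 in floxed, against 7.80, 8.10 and 7.86 log2 in control arrays. The 2 kept probe sets not yet given, 10496095 and 10496108, had log2 differences of −0.10 and −0.085. The 8 dim Lef1 probe sets, 10496093, 10496094, 10496097, 10496101, 10496103, 10496105, 10496107 and 10496109, had log2 differences from −0.53 to 0.37.

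**Figure D3:**
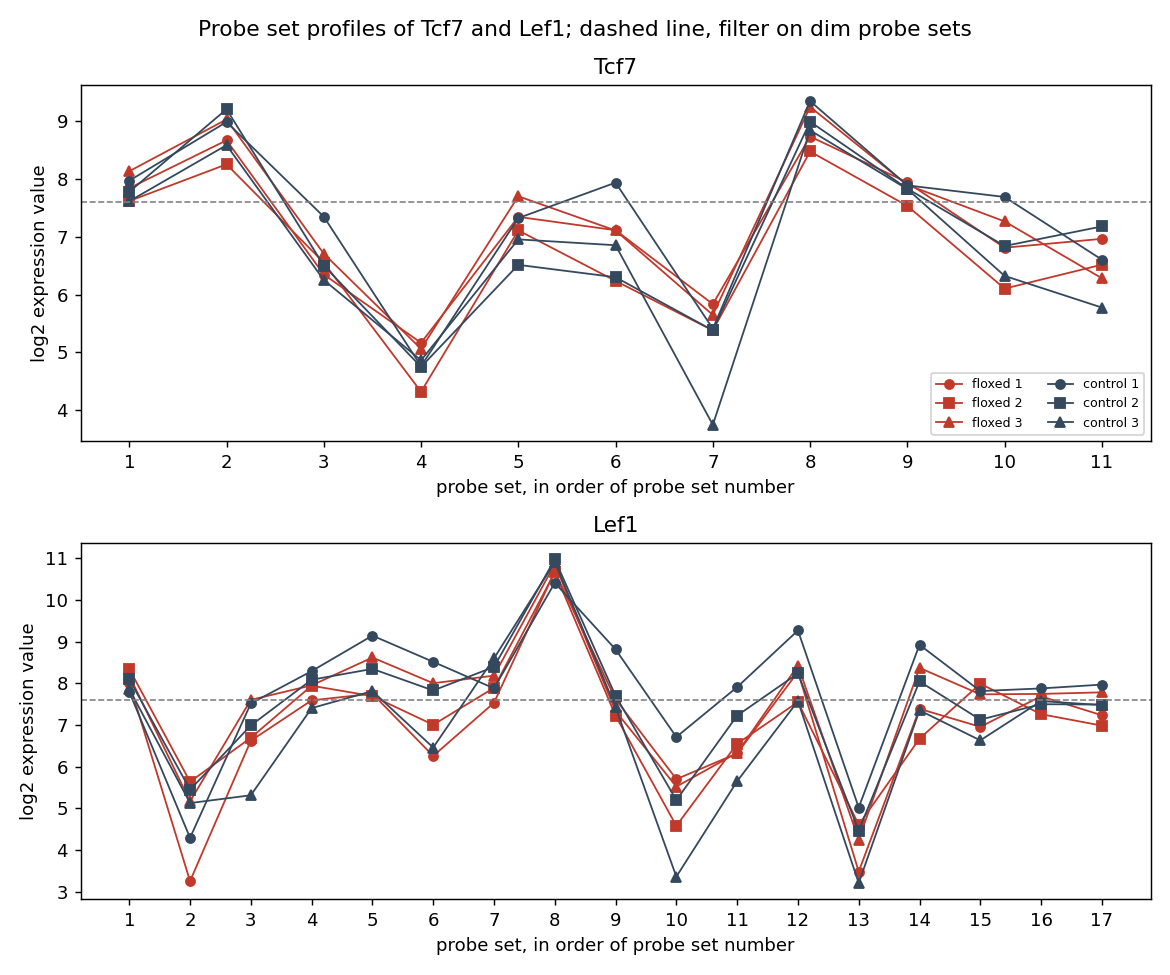
Log2 expression values (y axis) of the 11 Tcf7 and 17 Lef1 probe sets in order of probe set number (x axis) on each of the 6 arrays; red lines are floxed and dark lines control arrays, and the dashed line is the filter at 7.60 log2. The lines of both groups run together along both genes, and control replicate 1 lies above the other arrays over much of Lef1.

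The test of whether probe sets of a gene differ from each other in their fold change, limma's diffSplice, passed for 0 of the 8 genes with at least 2 kept probe sets (adjusted p of 1 for each). The unadjusted p was under 0.05 for 0 of the 8. Over all 11832 such genes 0.0169% passed, which are Ctnnb1 and Commd10, and 1.52% had an unadjusted p under 0.05. The unadjusted diffSplice p was 0.673 for Tcf7, 0.780 for Lef1 and 0.866 for Tcf7l2. A p of that size does not show that isoforms were in the same proportion.

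The order of the arrays was shared by several of these genes. Control replicate 1 was the highest of the 6 arrays for 5 of the 9 genes (Lef1, Tcf7l1, Tcf7l2, Bcl9 and Bcl9l), and for 22.5% of all genes. Among the controls, control replicate 1 was highest on 67 of the 102 probe sets, against 37.5% of all probe sets and 44.1% of all kept ones. Each gene taken as deviation from its own mean, the median of the 9 genes was −0.14, −0.04 and 0.18 log2 on floxed replicates 1, 2 and 3, and 0.21, 0.09 and −0.14 log2 on control replicates 1, 2 and 3. The groups thus overlapped, and each spread wider than the gap between their means.

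The mean of B cell markers, of early and mature cells, ran through the arrays in the same order as Lef1, although not every marker did. The 12 measured of 14 B cell markers had a mean of 8.75, 8.84 and 9.30 log2 on the floxed arrays, against 9.66, 9.09 and 8.21 log2 on the control arrays. From highest to lowest the order of the 6 arrays was control replicate 1, floxed replicate 3, control replicate 2, floxed replicates 2 and 1 and control replicate 3, for the B cell markers, for Lef1 and for the median of the 9 genes. That order was not particular to B cell markers. The mean of the HMG box genes given below differed from it only in that floxed replicate 1 stood above floxed replicate 2. The mean of CD34 positive progenitor markers was likewise highest on control replicate 1 and lowest on control replicate 3. Ebf1, a transcription factor that sets up the B lineage, had 8.13, 7.95 and 8.69 log2 on the floxed arrays, against 9.18, 8.58 and 6.99 log2 on the control arrays. The surrogate light chain gene Igll1 had 9.68, 9.75 and 10.38 log2 in floxed, against 10.89, 10.29 and 9.20 log2 in control arrays. Dntt, of highest mean signal in the list and an enzyme of antigen receptor assembly, had 10.73, 10.67 and 10.90 log2 in floxed, against 10.68, 10.77 and 10.60 log2 in control arrays, with the 6 arrays closer together than on Ebf1 or Igll1. By smallest p the list was led by Vpreb1, another surrogate light chain gene, with a log2 fold change of −0.14 (limma adjusted p = 0.999). Vpreb1 went against the order, highest on control replicate 3, with 8.41, 9.09 and 8.94 log2 in floxed, against 8.91, 8.85 and 9.11 log2 in control arrays. Cr2, a complement receptor gene of mature B cells, also had a high control replicate 3, with 7.96, 8.01 and 7.78 log2 in floxed, against 8.40, 7.65 and 8.15 log2 in control arrays. Whether cells of the B lineage contribute to the Lef1 values was not tested.

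**Figure D4:**
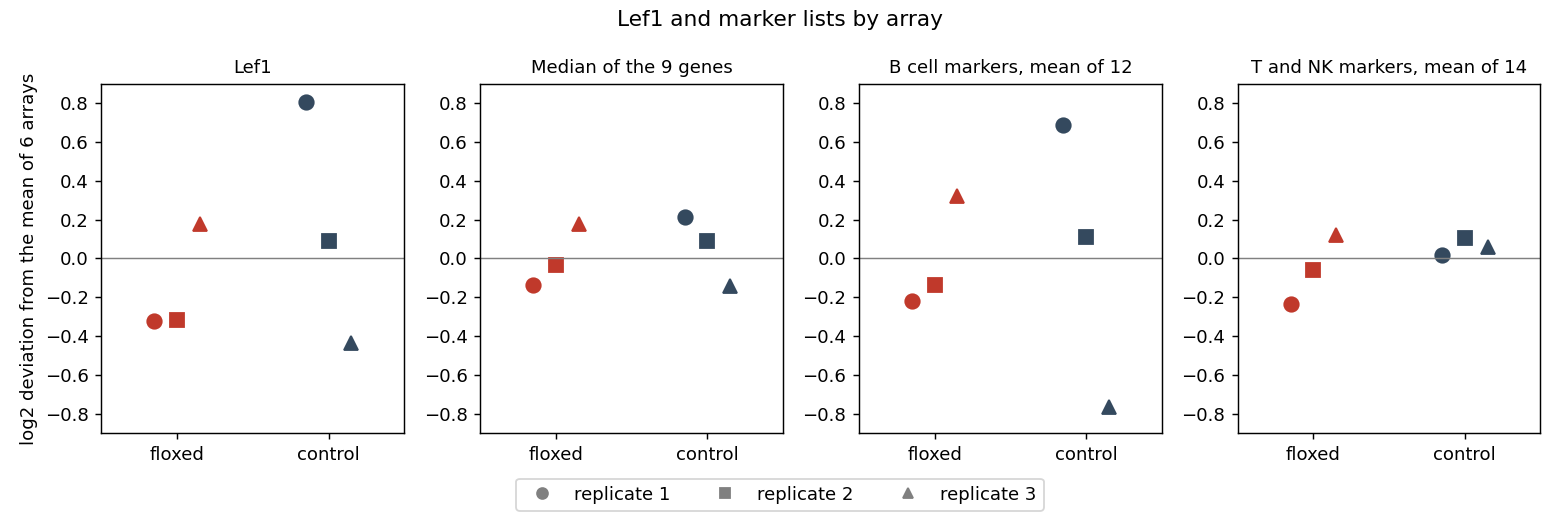
Log2 deviation from the mean of the 6 arrays (y axis) for Lef1, for the mean of 12 B cell markers and for the mean of 14 T and NK cell markers, and the median of such deviations over the 9 genes; floxed arrays stand left of control arrays, and the symbol gives the replicate number. Lef1 and the B cell markers are highest on control replicate 1 and lowest on control replicate 3, and the T and NK markers are not.

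Markers of T and NK cells did not run in that order. The 14 measured of 21 had a mean of 8.38, 8.56 and 8.74 log2 on the floxed arrays, against 8.63, 8.72 and 8.68 log2 on the control arrays. Cd4 had the smallest p of the list (difference −0.63 log2, SE 0.28, adjusted p = 0.999 in limma), and Nkg7 its highest mean signal (0.075). Of the 7 markers without a gene value, the CD3 chain genes Cd3d and Cd3g, of the T cell receptor complex, were in the table but kept no probe set. Of the same complex, Cd3e and Cd247 were measured, with log2 fold changes of −0.17 and −0.27. Granulocyte and macrophage markers, 12 of 13 measured, had a mean of 9.71, 9.76 and 10.29 log2 on the floxed arrays, against 10.44, 10.52 and 9.78 log2 on the control arrays. In that list 11 genes were lower in floxed arrays, among them Ngp (−0.88), of smallest p, while Mpo, of highest mean signal, had 0.048, none passing in limma (adjusted p = 0.999). Erythroid and megakaryocyte markers were lower for 6 of 7, with Epor at −0.48 and Car1, of highest mean signal, at −0.14, and stroma and endothelium markers for 7 of 9, with Cldn5 at −0.50 and Runx2, likewise chosen by mean signal, at −0.16. The part of these cell types in the values of the 9 genes was not tested.

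Stem cell markers were present on all arrays. Kit, of highest mean signal in the stem cell list, had 11.72, 11.63 and 11.85 log2 on the floxed arrays, against 11.78, 11.90 and 11.83 log2 on the control arrays. Hoxa9 had the smallest p of the 12 measured of 14 markers (difference 0.37 log2, SE 0.13, adjusted p = 0.999 in limma). Of the CD34 positive progenitor list, Cd34 RNA had the highest mean signal at 12.65 ± 0.04 log2 in floxed and 12.68 ± 0.03 log2 in control arrays (SD, n = 3 each), although the gate excludes cells with surface CD34, and Cd27 had the smallest p (−0.54, limma adjusted p = 0.999). Flt3 and Cd48 of that list had means of 11.83 and 10.33 log2 in floxed and 11.82 and 10.03 log2 in control arrays. The part of progenitors in the sorted cells was not tested. As a floor for dim probe sets, 95% of 1210 olfactory receptor probe sets, whose genes are mostly silent outside the nose, had a mean of at most 6.43 log2. Of the 102 probe sets of the 9 genes 89 lay above that level, between 3 of 5 for Pygo1 and 8 of 8 for Bcl9. Since a probe set's level also depends on its sequence, this is no call of presence.

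The proteins that work beside the TCF/LEF factors were likewise not called. Of 16 listed corepressors and inhibitors 15 were measured, 7 lower and 8 higher. The list's median difference was 0.028 log2, and 0 passed in limma where 0% of all genes did. The histone deacetylase gene Hdac2 had the smallest p, with 10.78, 10.40 and 10.67 log2 on the floxed arrays, against 10.29, 10.11 and 10.33 log2 on the control arrays (difference 0.37 log2, SE 0.14, adjusted p = 0.999 in limma). Hdac2 was the 1 gene of the 15 whose groups did not overlap, where 8.44% of all genes did not. Its paralogue Hdac1 had −0.013. The corepressor genes Ctbp2 and Tle4 followed with 0.19 (SE 0.17) and −0.16 (SE 0.21), and the genes of highest mean signal, Tle5 and Ctbp1, had −0.016 and −0.057.

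Of 22 coactivators 9 were lower and 13 higher (median difference 0.058 log2), and 0 passed in limma. The groups did not overlap for 2 of them, where 8.44% of all genes did not. Ruvbl1, an ATPase of chromatin complexes, had 9.40, 9.23 and 9.66 log2 on the floxed arrays, against 9.08, 9.16 and 9.08 log2 on the control arrays (difference 0.32 log2, SE 0.15, adjusted p = 0.999 in limma). The kinase gene Hipk2 had 10.49, 10.53 and 10.61 log2 on the floxed arrays, against 10.81, 10.71 and 10.70 log2 on the control arrays (difference −0.19 log2, SE 0.11, adjusted p = 0.999 in limma). Ruvbl1 thus lay higher and Hipk2 lower on 3 of 3 floxed arrays than on any control. Paf1, of the elongation complex that beta-catenin contacts, had 0.28 (SE 0.15). The acetyltransferase gene Crebbp and the remodeller gene Smarca4, of highest mean signal, had −0.013 and 0.017.

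Other genes with an HMG box, the DNA-binding fold of the TCF/LEF family, were lower for 5 and higher for 8 of 13 measured (median difference 0.046 log2). In limma 0 passed. The medians of these 3 lists changed sign without control replicate 3, to −0.042 for the corepressors and inhibitors, −0.025 for the coactivators and −0.022 for the HMG box genes, and also with array weights. That of the corepressors and inhibitors turned in further settings. It was −0.0057 with quantile normalization, −0.0029 with equal array medians and −0.016 with the 75th percentile filter. Without floxed replicate 1 it was −0.0011, and without floxed replicate 3 it was −0.023. Tox4, Tox and Sox4 had the smallest p, with log2 fold changes of 0.24 (SE 0.17), −0.24 (SE 0.19) and 0.13 (SE 0.13), and those of highest mean signal, Hmgb3 and Hmgb2, had 0.043 and 0.15.

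The genes whose values followed Tcf7 and Lef1 most closely over the 6 arrays were Stard10, Pgm1 and Isoc1 for Tcf7, with Pearson correlations of 0.994, 0.981 and 0.976. For Lef1 they were Cptp, Ube2z and Nfkbib, with 0.998, 0.997 and 0.993. Of the 13961 genes compared, 73 had a correlation over 0.9 with Tcf7 and 395 with Lef1, so these names are a description of 6 arrays and no finding.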

How the data were processed

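The deposited values are log2 expression values per probe set, from 2.44 to 14.53. MAS5 is the sole tool in the submitters' processing notes, which state neither its role nor a version; the authors' background correction and normalization are not given in the sources used here. Base 2 was read off the values. Array medians lay between 7.56 and 7.65 and nothing was renormalized. An annotation of the platform named 1 gene for 212097 probe sets; 17620 of 20416 symbols were current in RefSeq (GRCm38.p6), 2741 were updated, 2 (Tcf3, Tcfe2a) were set by hand and 53 matched nothing. Probe sets reaching the median mean (7.60) were kept, 120788 in all, 110361 with 1 gene. Genes (median of kept probe sets) and probe sets were fitted in limma 3.58.1 under R 4.3.3 (eBayes with trend, two-sided, Benjamini-Hochberg over all features), read with the package data.table (version 1.17.8). Detection calls and batches were not used here. Precision is limited by the number of arrays.

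Tested on simulated data for 14587 genes, with 200 changed, the gene fit recovered 88.4% of changes of 1 log2 (6.75% of calls false) and 100% of changes of 2 (5.84% false). For 11832 genes diffSplice recovered 100% of single probe sets shifted by 4 log2, with 9.91% of calls false. Simulated noise was independent and equal in both groups, so these are no estimate of power.

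The members, lists and alternatives were chosen with earlier results of these data known. Named were the 9 genes, every Tcf7 and Lef1 probe set, Ctnnb1, the 3 genes of smallest p and 2 of highest mean per pathway list, 1 of each per marker list, and the 3 genes most correlated with Tcf7 and Lef1, predicted genes passed over. Further markers (Ebf1, Igll1, Cr2, Hdac1, Cd3d, Cd3e, Cd3g, Cd247, Flt3, Cd48) were named after their values were seen. Results were recomputed after leaving out each array in turn, after quantile normalization or shifting arrays to 1 median, with every probe set or those past the 75th percentile, averaging probe sets in place of their median, weighting arrays, and blocking on replicate number.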

Additional observations from a re-analysis of the deposited data

How the results depend on the processing

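Over 13 alternatives the counts of the 9 genes and of the 3 pathway lists past the threshold were all 0, as were those of member probe sets and diffSplice over 12 (averaging probe sets does not bear on these); the lists were added to the alternatives after the data were seen. Over all genes, array weights called 404 and leaving out control replicate 1 gave 264 by diffSplice, against 0 and 2 with all arrays unweighted. With the replicate number as a block Lef1 had −0.31 (limma adjusted p = 0.999) and no call on the 9 genes changed; deviations of same-numbered replicates correlated across genes at 0.20, −0.0036 and −0.24, so the numbers were not taken as pairs. The median of the 9 genes ran from −0.14 to −0.0067; the median of all genes was −0.019 with quantile normalization. Signs turned as follows, none passing. Pygo2 had −0.025 with quantile normalization, −0.014 with equal array medians, −0.12 with no filter and −0.21 with array weights, and Pygo1 −0.14 and −0.026 with these last settings. Tcf7l2 had 0.10 with array weights and Bcl9l 0.019 with the 75th percentile filter. Leaving out 1 array at a time gave −0.24 to 0.078 for Tcf7 (above 0 without floxed replicate 2), −0.28 to 0.034 for Tcf7l2 (above 0 without control replicate 1), −0.12 to 0.0999 for Bcl9l and −0.070 to 0.16 for Pygo2. The cause was not tested. The 75th percentile filter left 6 of the 9 genes. With that filter 0 genes, 0 probe sets and 0 genes by diffSplice passed over the whole array, Ctnnb1 included. The 0 of the members there thus tells nothing about them. Under most other alternatives too, 0 genes of the whole array passed in the gene fit. Signal over background is unknown.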
